A study of Mus musculus with 6 samples.

Results

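The serpins are a family of protease inhibitors, and 49 protein-coding genes whose symbol begins with Serpin were present among the 42747 rows of the deposited count table. They were chosen by symbol and biotype alone, but the family was proposed because the contrast of cKO with WT testes in these libraries had already shown serpin genes among the strongest falls. All values of that contrast are therefore given here as a description. No p-value of a single serpin is given, counts of serpins past a threshold are part of the description, and "called" means only that a gene passed an adjusted p of 0.05 in a fit across all 18383 tested genes. Of the 49 genes, 16 are Serpina genes in 1 cluster on chromosome 12 and 33 lie elsewhere.

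Messenger RNA was sequenced from testes of mouse embryos at stage E16.5, from 3 mice labelled cKO and 3 labelled WT. The study's title names CK1α, a casein kinase encoded by Csnk1a1, and points to Sertoli cells, which nurse the germ cells of the cords. cKO was read as a conditional knockout of that gene and WT as wild type. Strain, Cre driver, floxed allele and deleted part of the gene are not stated in the sources at hand.

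A serpin works as bait. An exposed loop near its carboxy end is cut by the target protease, the serpin then refolds around the cut loop, and the protease is trapped in a covalent complex. Clade A serpins are mostly secreted and are best known from blood plasma and liver, clade B serpins act inside cells, clade E holds the inhibitors of plasminogen activators, and clade H holds a collagen chaperone that inhibits no protease. In the testis, Serpina5, the protein C inhibitor, is known from male infertility and a damaged Sertoli cell barrier in mice that lack it.

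The libraries held 15092619 to 17431546 counts. Csnk1a1 stood at 377 to 405 CPM in cKO and 348 to 396 CPM in WT, where CPM is the count scaled to a common library total. The groups overlapped, and since the deleted part is not given this count does not check the labels. Among 27 Sertoli cell markers tested, edgeR called 18 lower and 0 higher (without adjustment, p under 0.05 in 21 lower and 1 higher; DESeq2 and limma-voom called 0 higher). Over all 18383 tested genes, edgeR called 1.84% lower and 1.50% higher. Without adjustment, p was under 0.05 in 1476 of these genes lower and 1424 higher. None of the 27 Sertoli markers was at 0 in any library. In whole-organ RNA, fewer cells of a type and less RNA per cell cannot be told apart.

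Promoter sequences of 4 neighbours in the chromosome 12 cluster are shown first because the results turn on how unevenly this cluster differed between the groups. Each is the 250 bases before the transcription start in RefSeq (build GRCm38.p6), written 5′ to 3′ on the gene's strand. Capitals mark matches on either strand to 5 short motifs: AACAAT for SOX factors, CTTTGA for TCF/LEF factors, AGATAA for factors of the GATA family, AAGGTCA for the receptor NR5A1 and TATAAA for the TATA box.
Serpina5: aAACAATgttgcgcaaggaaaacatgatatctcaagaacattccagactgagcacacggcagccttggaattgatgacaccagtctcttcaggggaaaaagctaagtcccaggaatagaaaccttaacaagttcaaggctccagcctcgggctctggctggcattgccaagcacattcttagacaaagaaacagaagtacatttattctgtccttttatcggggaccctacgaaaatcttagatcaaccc
Serpina3a: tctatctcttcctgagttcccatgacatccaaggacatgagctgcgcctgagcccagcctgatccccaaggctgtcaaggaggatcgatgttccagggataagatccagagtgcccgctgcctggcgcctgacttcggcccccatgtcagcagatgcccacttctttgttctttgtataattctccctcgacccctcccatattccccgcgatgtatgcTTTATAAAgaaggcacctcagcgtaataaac
Serpina3c: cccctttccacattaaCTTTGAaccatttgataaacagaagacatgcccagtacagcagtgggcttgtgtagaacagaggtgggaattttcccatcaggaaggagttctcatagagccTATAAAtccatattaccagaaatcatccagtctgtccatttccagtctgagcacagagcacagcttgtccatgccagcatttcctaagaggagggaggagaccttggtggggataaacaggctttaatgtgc
Serpina12: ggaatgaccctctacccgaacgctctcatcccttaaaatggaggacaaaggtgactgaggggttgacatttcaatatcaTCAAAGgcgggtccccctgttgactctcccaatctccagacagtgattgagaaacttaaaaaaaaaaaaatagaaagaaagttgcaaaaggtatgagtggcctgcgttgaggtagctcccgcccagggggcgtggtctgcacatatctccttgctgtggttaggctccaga

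These windows lie on chromosome 12 of GRCm38.p6 at chr12:104100863-104101112 (plus strand, Serpina5), chr12:104112474-104112723 (plus, Serpina3a), chr12:104153873-104154122 (minus, Serpina3c) and chr12:104044444-104044693 (minus, Serpina12). Serpina5 and Serpina3a, the pair with the largest differences between groups, shared none of the searched motifs in their exact letters. Looser forms of the motifs were not searched, so whether the pair shares a looser SOX form was not tested. Serpina5 had 1 exact SOX match, which began 249 bases before the start. Among the exact motifs Serpina3a had only the TATA stretch, which began 31 bases before the start and reads as the motif on both strands. Serpina3c and Serpina12 each had 1 TCF/LEF match, at 234 and 171 bases. Serpina3c also had 1 TATA match, which began 132 bases before the start. AACAAT occurred in 9.43% of 32841 RefSeq promoter windows of the same length, CTTTGA in 13.83%, AGATAA in 9.99%, AAGGTCA in 4.08% and TATAAA in 12.37%. Of 12 windows in the cluster (11 of its 16 genes had at least 1), the numbers with each motif were 1, 4, 1, 1 and 3 in the same order. The Serpina5 and Serpina3a windows aligned at 50.0% identity, against a median of 49.2% over the 55 pairs of genes of the cluster. Gaps were allowed and unrelated promoters were not aligned, so these values do not show that the windows are related. The highest identity was 90.5%, between Serpina3c and Serpina3n. A match describes letters in a window and is not a shown binding site.

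Per gene length, the serpin transcripts of WT testes spanned a wide range. The scale used here is FPKM, the authors' values per kilobase of gene and scaled to library size. In WT libraries 16 of the 49 genes had a mean of at least 1 FPKM. Serpinh1, which encodes the collagen chaperone HSP47, led with 412 ± 50.3 FPKM (SD, n = 3). Serpinb6a, an intracellular inhibitor, and Serpine2, the secreted thrombin and urokinase inhibitor protease nexin, followed at 38.3 ± 5.76 and 38.1 ± 4.10 FPKM, a gap smaller than the spread of either. Serping1, the C1 inhibitor of complement, had 30.7 ± 3.81 FPKM. Serpina5 was the fifth in WT at 23.9 ± 7.05 FPKM, and its WT values of 15.8, 27.1 and 28.8 FPKM overlapped those of Serpinf1 (18.3, 23.1 and 18.9). In cKO libraries Serpina5 had 0.509 ± 0.432 FPKM (SD, n = 3) and ranked 15 among the 49, and Serpina3a ranked 9 in WT and 35 in cKO. The same 4 genes, Serpinh1, Serpinb6a, Serping1 and Serpine2, held the first 4 ranks in both groups.

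**Figure D1:**
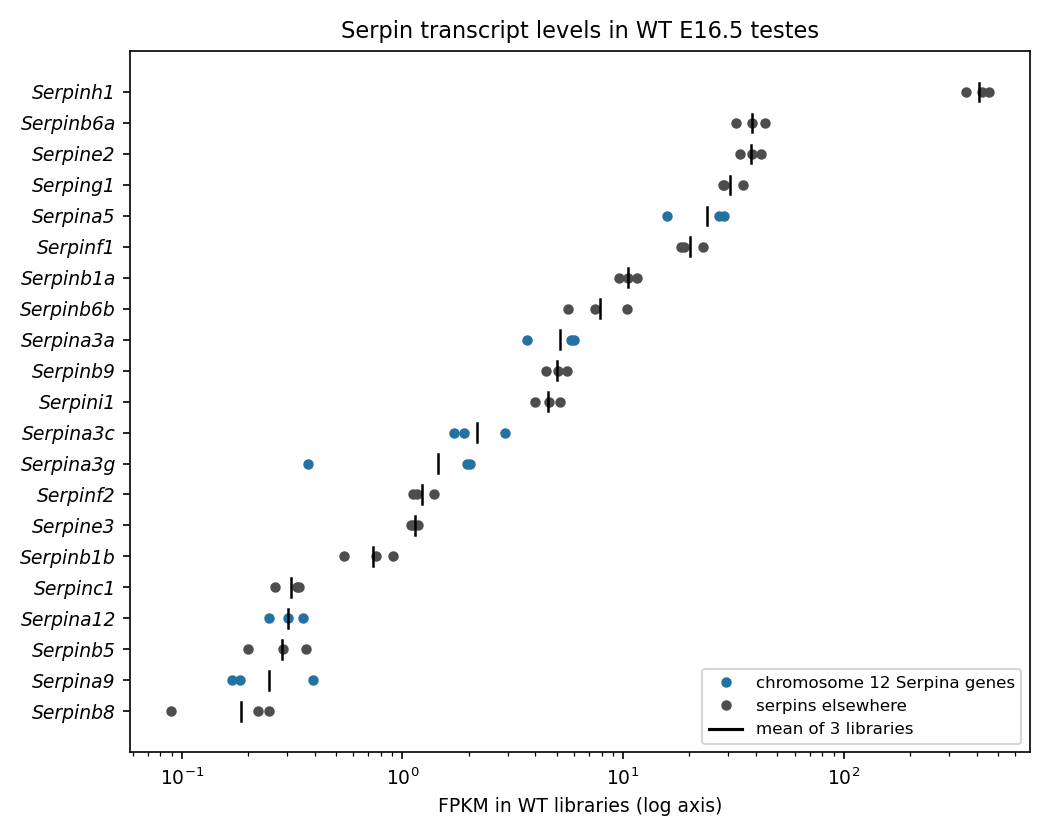
FPKM of 21 tested serpin genes in the 3 WT libraries, on a log axis, with 1 point per library and a vertical bar at the mean. Serpinh1 stands alone at 412 FPKM, and the chromosome 12 Serpina genes (blue) spread from 0.249 FPKM for Serpina9 to 23.9 FPKM for Serpina5.

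In cKO testes, 2 of the 22 serpins with enough counts for a test were called lower, Serpina5 and Serpina3a, and 0 were called higher with edgeR. Before adjustment, 5 lower and 0 higher had p under 0.05, against 1476 lower and 1424 higher of all 18383 tested genes. Neither DESeq2 nor limma-voom called any higher (0 each). Over all 18383 tested genes 1.84% were called lower, 1.50% higher and 3.35% either way. In 4 of the 22 serpins all cKO libraries lay below all WT libraries, and in 0 above, where 10.9% and 10.7% of all tested genes did so. All 4 were Serpina genes of chromosome 12. Since the family was proposed for these falls, nothing is read from these shares. The remaining 27 serpins had 0 to 55 counts over all 6 libraries together and were not tested. Of the 22 tested serpins, 4 (Serpina5, Serpina3a, Serpina9 and Serpinb1b) reached the filter level in all 3 WT libraries but not in all 3 cKO libraries, so they entered through the WT group.

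**Figure D2:**
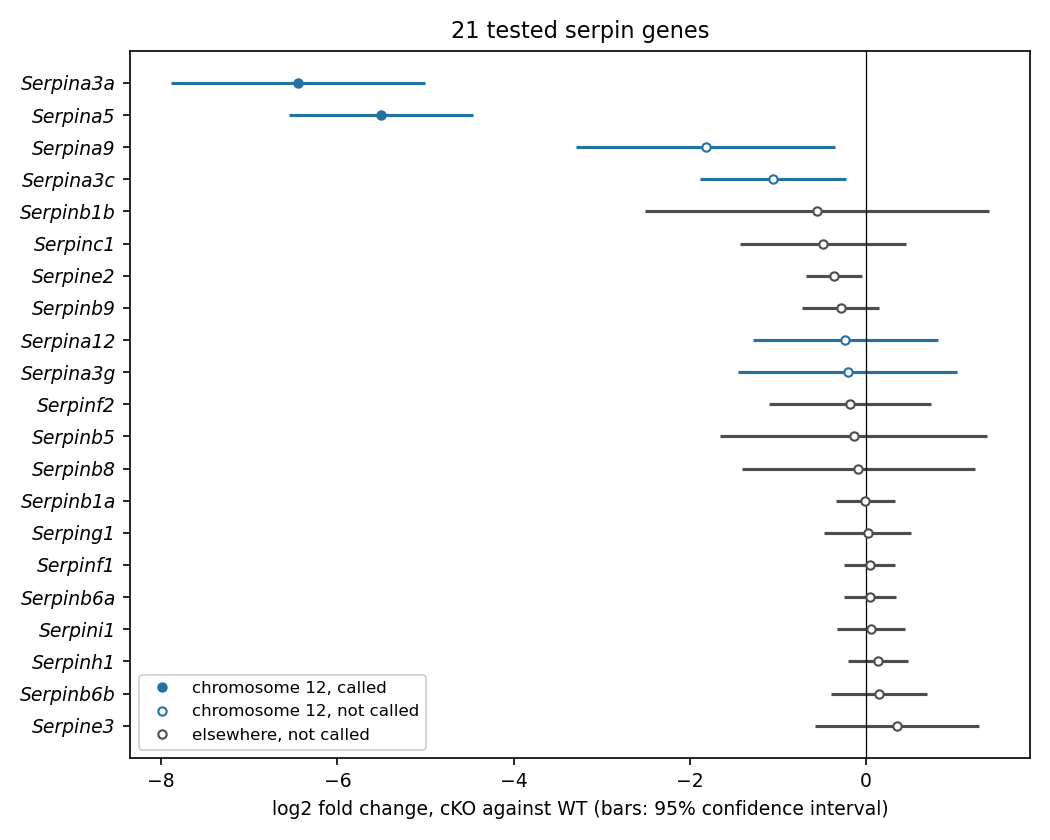
Log2 fold change of cKO against WT with its 95% confidence interval for 21 tested serpins, filled where called and open where not, blue for chromosome 12. Serpina3a and Serpina5 sit at -6.44 and -5.51, and the 15 serpins shown from elsewhere lie between -0.55 and 0.35.

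The clade A cluster held both called genes. Serpina5 had 1.19, 0.133 and 2.01 CPM in cKO libraries 1, 2 and 3 and 34.9, 59.1 and 62.9 CPM in WT libraries 1, 2 and 3. The lowest WT library was far above the highest cKO library, and the ratio of the group means was 47.1. Its fitted log2 fold change was -5.51 (95% confidence interval -6.55 to -4.47, SE 0.474). In raw counts this was 18, 2 and 35 against 560, 889 and 1051. Without cKO library 3, the highest of the cKO libraries, the log2 fold change of Serpina5 was -6.29. With all libraries on the log2(FPKM + 1) scale, which shrinks fold changes at low levels, it was -4.04.

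Serpina3a, a member of the group of genes related to antichymotrypsin, had 0, 0 and 5 counts in cKO libraries 1, 2 and 3 and 112, 170 and 182 in WT libraries. These are 0, 0 and 0.288 CPM against 6.97, 11.3 and 10.9 CPM, and the groups did not overlap. The fitted log2 fold change was -6.44 (95% interval -7.89 to -5.003, SE 0.655), the lowest of all 18383 tested genes. It rests on the 5 counts of cKO library 3. Without that library both remaining cKO libraries were at 0, and with a floor of 3 counts per library the gene was at least 49.0-fold lower, for counting error only. On the log2(FPKM + 1) scale the log2 fold change of Serpina3a was -2.53.

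The other tested members of the cluster were not called. Serpina3c had 3.42, 1.66 and 1.96 CPM in cKO and 6.53, 4.26 and 3.83 CPM in WT. Its groups did not overlap but came close, and the log2 fold change was -1.05 (95% interval -1.88 to -0.23, SE 0.376). Serpina9, known from germinal centre B cells, had 0.132, 0.399 and 0.230 CPM in cKO and 0.622, 0.665 and 1.43 CPM in WT. That is 2 to 6 counts against 10 to 24, with a log2 fold change of -1.82 (95% interval -3.29 to -0.35, SE 0.668).

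Serpina12, the adipokine vaspin, and Serpina3g, an inhibitor of lysosomal cathepsins, overlapped between the groups. Serpina12 had 0.724, 0.931 and 1.21 CPM in cKO and 0.933, 1.13 and 1.32 CPM in WT, which gave a log2 fold change of -0.23 (SE 0.478). Serpina3g had 2.31, 1.596 and 3.91 CPM in cKO and 4.11, 4.19 and 0.777 CPM in WT, which gave a log2 fold change of -0.21 (SE 0.566). WT library 3 was the lowest of all 6 for Serpina3g, while it was the highest for Serpina5. Leaving out WT library 1 or WT library 2 turned the sign of Serpina3g, to 0.08 and 0.11, and leaving out cKO library 2 gave 0.05. In GENCODE M21 transcripts, 3.67% of the 100-base windows of Serpina3g also occurred in another gene, most often Serpina3h or Serpina3i. For Serpina5, Serpina3a, Serpina3c, Serpina9 and Serpina12 none did, so exact reads of that length can be told apart from those of their relatives. The read length of the libraries is not given.

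**Figure D3:**
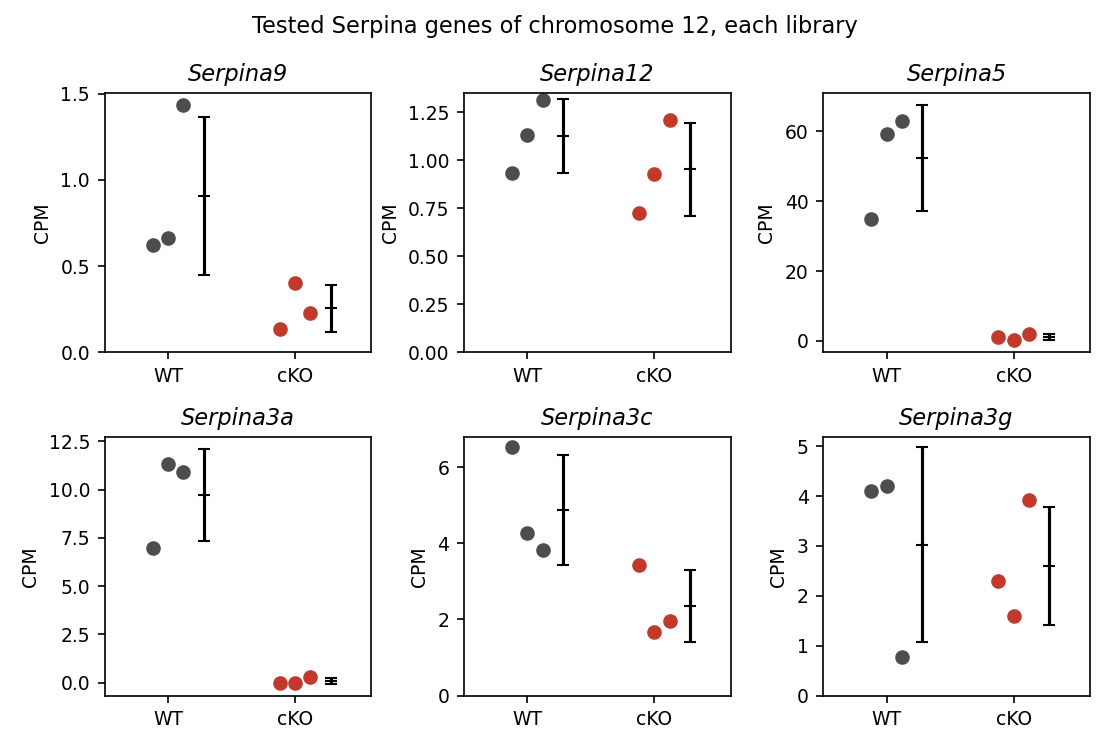
CPM of the 6 tested chromosome 12 Serpina genes in each library, with the mean and SD of 3 libraries beside the points. The WT points of Serpina5 (34.9 to 62.9 CPM) and Serpina3a (6.97 to 11.3 CPM) are far above cKO, while those of Serpina12 and Serpina3g overlap with cKO.

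The other 10 members of the cluster were too rare to test. Serpina16 had 0, 1 and 11 counts in cKO and 6, 21 and 16 in WT, so cKO library 3 overlapped with WT. Serpina1f had 4, 2 and 3 counts in cKO and 7, 7 and 13 in WT. Serpina3b, the next gene after Serpina3a, had 0, 0 and 2 counts in cKO and 2, 7 and 5 in WT. Serpina6, the corticosteroid-binding globulin of plasma, had 2, 9 and 10 counts in cKO and 2, 0 and 5 in WT, which overlap. Serpina10, Serpina11, Serpina3j, Serpina3k, Serpina3m and Serpina3n had 1 to 15 counts in all 6 libraries together. Serpina3k and Serpina3m have the same start in the file and overlap, and 4.85% and 6.09% of their windows were shared with each other, so their counts are uncertain.

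As a cluster, the 16 genes summed to 8.36, 5.65 and 11.5 CPM in cKO and 56.3, 83.2 and 83.9 CPM in WT, a ratio of 8.75. Serpina5 made up 61.9% to 74.9% of the cluster's counts in WT libraries and 2.35% to 17.5% in cKO libraries. Without it the sums were 7.18, 5.52 and 9.49 CPM against 21.4, 24.02 and 21.1 CPM, a ratio of 3.00. Without Serpina5 and Serpina3a they were 7.18, 5.52 and 9.20 CPM against 14.4, 12.7 and 10.2 CPM, a ratio of 1.70, and the lowest WT library was close to the highest cKO library. The median log2 fold change of the 6 tested members was -1.44, that of the 16 tested serpins elsewhere -0.05 and that of all tested genes 0.00264. The first of these includes 3 genes that entered the test through WT libraries.

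The files place the cluster at positions 108580473 to 109516712 of chromosome 12 in the coordinates of the C57BL/6NJ assembly, a span of 936 kb. Serpina5 (109171293 to 109176338, plus strand) and Serpina3a (109184408 to 109193580, plus strand) are neighbours separated by 8.07 kb. On 1 side lies Serpina12 on the minus strand, whose lower coordinate is 74.8 kb below that of Serpina5. On the other side, past Serpina3b, lies Serpina3c on the minus strand, whose lower coordinate is 46.7 kb above it. The differences between groups therefore ran from -0.23 to -5.51, -6.44 and -1.05 on the log2 scale over 4 tested genes in a row.

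The 2 other protein-coding genes of the file inside the cluster have no symbol and had at most 0.198 CPM in any library. Since members were chosen by symbol, whether these 2 genes are serpins is not known here. Of the 5 nearest protein-coding genes on each side, 7 were tested and 6 of these were not called. Over all tested genes, 3.35% were called either way. Ppp4r4, a phosphatase regulatory subunit and the next gene before Serpina10, had a log2 fold change of -0.27 (SE 0.187, edgeR adjusted p = 0.54). Gsc, the homeobox gene goosecoid and the next gene after Serpina3n, had 0.55 (SE 0.571, edgeR adjusted p = 0.699), and Dicer1, the ribonuclease of microRNA processing, had -0.03 (SE 0.127, edgeR adjusted p = 0.941). Clmn, 714 kb from Serpina5, was higher in cKO at 49.9, 43.7 and 44.9 CPM against 29.4, 29.0 and 32.4 CPM, a log2 fold change of 0.61 (SE 0.129, edgeR adjusted p = 0.0259).

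**Figure D4:**
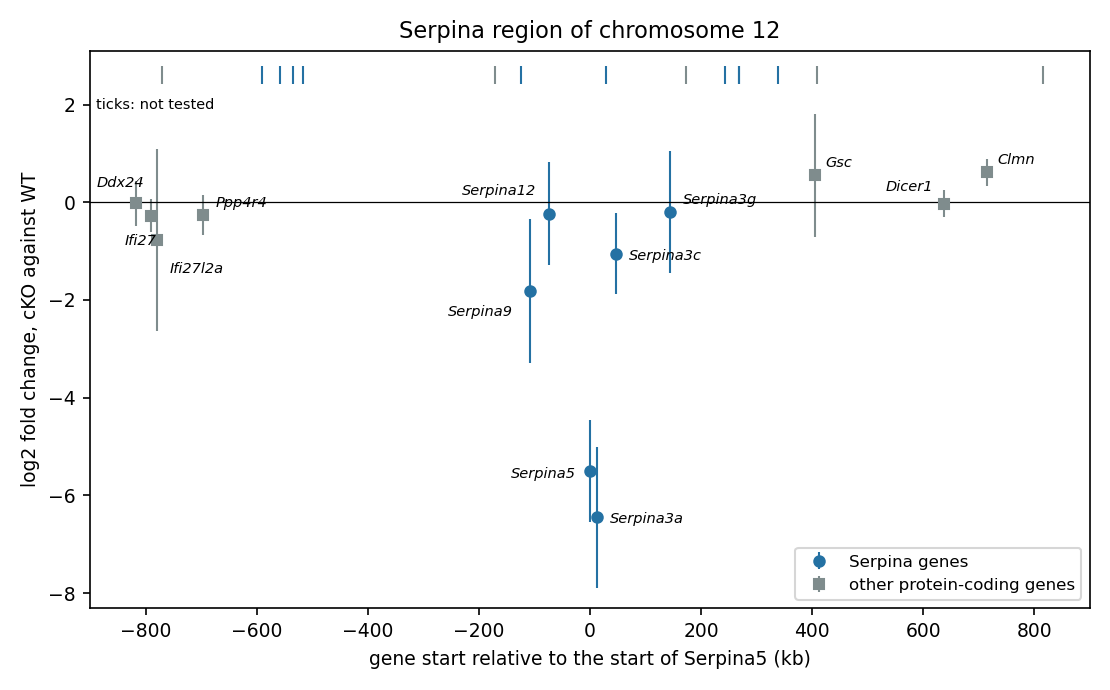
Log2 fold change of cKO against WT, with 95% confidence intervals, by distance in kb from the start of Serpina5, for Serpina genes (blue circles) and other protein-coding genes (grey squares). Ticks at the top mark genes that were not tested. Serpina5 and Serpina3a lie at -5.51 and -6.44 and the tested genes outside the cluster between -0.77 and 0.61.

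The fold changes of 15 tested serpins on other chromosomes lay between -0.55 and 0.35 on the log2 scale. None of the 16 tested was called in either direction with edgeR, DESeq2 or limma-voom, and the unadjusted p was under 0.05 in 1 lower and 0 higher. Among all 18383 tested genes, edgeR called 3.35% either way, and unadjusted p was under 0.05 in 1476 lower and 1424 higher. With so low a share called, 0 of 16 does not set these serpins apart from other genes. Their summed level was 1898, 1562 and 1530 CPM in cKO and 1492, 1665 and 1771 CPM in WT. These ranges overlapped. Serpinh1 alone made up 56.1% to 60.01% of all serpin counts in cKO libraries and 49.7% to 52.6% in WT libraries.

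Serpinh1 had 1144, 905 and 864 CPM in cKO and 770, 908 and 975.4 CPM in WT. Its groups overlapped, with a log2 fold change of 0.13 (95% interval -0.20 to 0.47, SE 0.154). Collagens are the clients of this chaperone. Of 20 collagens and collagen-modifying proteins tested, edgeR, DESeq2 and limma-voom each called 0 in either direction (unadjusted p under 0.05 in 5 higher and 0 lower), with a median log2 fold change of 0.20. Among all 18383 tested genes, edgeR called 3.35% either way, and unadjusted p was under 0.05 in 1424 higher and 1476 lower. Col1a1, the most abundant, and Col3a1 stood at 0.70 (SE 0.294, edgeR adjusted p = 0.274) and 0.56 (SE 0.224, edgeR adjusted p = 0.25). Col1a2, the other of the 2 most abundant, stood at 0.60 (SE 0.231, edgeR adjusted p = 0.232). Crtap, a part of the collagen prolyl hydroxylation complex, had the smallest p of the list at 0.36 (SE 0.119, edgeR adjusted p = 0.157).

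Among the inhibitors of plasminogen activators, Serpine2 had 293, 218 and 236 CPM in cKO and 322, 283 and 353 CPM in WT. cKO library 1 overlapped with WT library 2, and the log2 fold change was -0.36 (95% interval -0.68 to -0.04, SE 0.143). Serpine3 had 1.495 to 2.96 CPM in cKO and 1.55 to 1.68 CPM in WT, and Serpini1, the tissue plasminogen activator inhibitor neuroserpin, had 29.4, 44.2 and 32.0 CPM against 34.1, 29.2 and 38.2 CPM. The groups overlapped for both genes. The activators themselves were not called either. Plat, tissue plasminogen activator, had a log2 fold change of 0.42 (SE 0.172, edgeR adjusted p = 0.267) and Plau, urokinase, 0.10 (SE 0.253, edgeR adjusted p = 0.888).

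Among the secreted serpins of complement and vessels, Serping1 had 95.7, 45.5 and 78.1 CPM in cKO and 66.8, 67.3 and 82.4 CPM in WT. cKO library 2 was the lowest and cKO library 1 the highest of the 6, and the log2 fold change was 0.02 (SE 0.223). Serpinf1, the antiangiogenic factor PEDF, had 50.0, 47.9 and 49.8 CPM in cKO and 43.8, 54.9 and 45.0 CPM in WT, with a log2 fold change of 0.04 and a 95% confidence interval of -0.25 to 0.33. Serpinf2, the plasmin inhibitor antiplasmin, and Serpinc1, antithrombin, had at most 4.03 CPM in any library and overlapped between the groups.

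Of 21 clade B serpins, 7 were tested and none was called, where 3.35% of all tested genes were called either way. Serpinb6a had 213, 235 and 203 CPM in cKO and 179, 240 and 211 CPM in WT (log2 fold change 0.05, 95% confidence interval -0.24 to 0.34). Serpinb1a, an inhibitor of neutrophil proteases, had 21.7, 20.2 and 19.95 CPM in cKO and 20.8, 22.6 and 18.8 CPM in WT (-0.01, 95% confidence interval -0.34 to 0.33). Both spread as much within a group as between groups. Serpinb9, the granzyme B inhibitor, and Serpinb6b had 12.4 to 24.3 CPM in cKO and 12.5 to 23.1 CPM in WT. Serpinb5 (maspin), Serpinb8 and Serpinb1b had at most 2.07 CPM in any library.

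The 10 Serpinb genes of chromosome 1, another serpin cluster, summed to only 23 to 37 counts in a cKO library and 32 to 40 in a WT library. The 11 of chromosome 13 summed to 273, 293 and 255 CPM in cKO and 239, 305 and 261 CPM in WT, which overlap. Serpinb3a and Serpinb10 had 0 counts in all 6 libraries, and the 12 other untested Serpinb genes had 2 to 49 counts in all. Serpina7, the thyroxine-binding globulin gene and the 1 Serpina gene outside chromosome 12, had 0, 2 and 10 counts in cKO and 11, 5 and 10 in WT. It was not tested, and the groups overlapped. Serpind1 (heparin cofactor) had 0, 8 and 5 counts against 2, 11 and 18, and Serpini2 had 4, 0 and 2 against 2, 1 and 7.

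Other parts of the protease system were read from 3 lists: serpin targets with other proteases and clotting factors, receptors with cofactors, and unrelated inhibitors. Not every protease of the first list, which includes Mmp2 and Mmp14, is a serpin target. Of 25 tested genes on the list of proteases and clotting factors, 1 was called higher and 2 were called lower. Over all tested genes, 1.50% were called higher and 1.84% lower. Ctsl, the lysosomal protease cathepsin L, fell from 445, 664 and 559 CPM in WT to 150, 231 and 155 CPM in cKO (log2 fold change -1.64, SE 0.197, edgeR adjusted p = 0.000892). Masp1, a protease of the lectin pathway of complement, fell from 25.8, 28.9 and 28.9 CPM to 8.63, 7.58 and 5.58 CPM (-1.94, SE 0.195, edgeR adjusted p = 0.000297). St14, the membrane protease matriptase, rose from 13.8, 11.1 and 12.9 CPM to 18.4, 29.1 and 24.6 CPM (0.93, SE 0.199, edgeR adjusted p = 0.0268). For Ctsl, Masp1 and St14 the groups did not overlap. Of all tested genes, 10.9% had all cKO libraries below all WT libraries and 10.7% above. The list's median log2 fold change was 0.10. Mmp2 and Pcsk5 were not called (0.48 and -0.48, edgeR adjusted p = 0.0839 and 0.0793).

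Proc, the gene of the protein C that Serpina5 inhibits, had too few counts to be tested and was at 0 in 2 libraries. Other partners of Serpina5 were not set apart from the lists. Of 19 serpin receptors and cofactors tested, edgeR called 1 higher and 0 lower (unadjusted p under 0.05 in 2 higher and 0 lower; 0 lower by the other tools, DESeq2 and limma-voom). The higher gene was Sorl1, a sorting receptor of the LDL receptor family, at 77.2, 85.9 and 74.6 CPM in cKO and 43.7, 52.8 and 51.2 CPM in WT (0.69, SE 0.127, edgeR adjusted p = 0.0125). Sdc1 (0.43), Lrp8 (-0.56) and Plaur, the urokinase receptor (-0.54), were not called. The most abundant of the list, Hspg2, the heparan sulfate proteoglycan perlecan (0.20), and Gpc3 (0.28), were not called either. Over all 18383 tested genes, 1.50% were called higher and 1.84% lower. Unadjusted p was under 0.05 in 1424 of these genes higher and 1476 lower.

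Of 31 protease inhibitors that are not serpins, edgeR called 3 lower and 0 higher (unadjusted p under 0.05 in 6 lower and 5 higher; 0 higher by the other tools, DESeq2 and limma-voom), with a median of -0.03. The cystatin Cst9 fell from 81.0, 85.4 and 70.7 CPM in WT to 18.6, 16.2 and 11.2 CPM in cKO (-2.37, SE 0.186, edgeR adjusted p = 8.31e-05). Cst12 fell by 1.01 on the log2 scale (SE 0.179, edgeR adjusted p = 0.00966), and Wfdc10 fell by 2.605 (SE 0.51, edgeR adjusted p = 0.0173). The abundant inhibitors Itih5 (0.07) and Spock2 (-0.47) were not called. Over all 18383 tested genes, 1.84% were called lower and 1.50% higher. Unadjusted p was under 0.05 in 1476 of these genes lower and 1424 higher. Cst9 is also on the list of Sertoli markers.

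Of the Sertoli cell markers, 18 of 27 were called lower in cKO libraries and 9 were not called, where 1.84% of all tested genes were called lower. The 27 markers summed to 2537, 2642 and 2100 CPM in cKO and 4320, 5549 and 4776 CPM in WT, a ratio of 2.01. Set against that sum, Serpina5 had 0.467, 0.0503 and 0.958 CPM per 1000 marker CPM in cKO and 8.07, 10.7 and 13.2 in WT. These values did not overlap between the groups, with a ratio of 21.6. The sum includes the 9 markers that were not called, so it need not follow the Sertoli cell content of a library. Serpina3a had 0, 0 and 0.137 per 1000 marker CPM in cKO and 1.61, 2.04 and 2.28 in WT. Single markers fell by more than the sum, for example Hsd17b3, which fell by 3.31 on the log2 scale (edgeR adjusted p = 1.35e-05), and Defb19, which fell by 2.56 (edgeR adjusted p = 5.06e-06). The most abundant were Clu, which fell by 0.86 (edgeR adjusted p = 0.0124), and Amh, which fell by 2.41 (edgeR adjusted p = 0.00382). Of the 9 markers not called, Gata4 (-0.48), Inha (-0.57) and Cyp26b1 (-0.93) had negative log2 fold changes. Those of Wt1 (0.23), Nr5a1 (0.05), Fgf9 (0.29), Cldn11 (0.33), Gata1 (0.91) and Kitl (0.27) were positive. The part of Sertoli cell number or state in the serpin values was not tested.

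**Figure D5:**
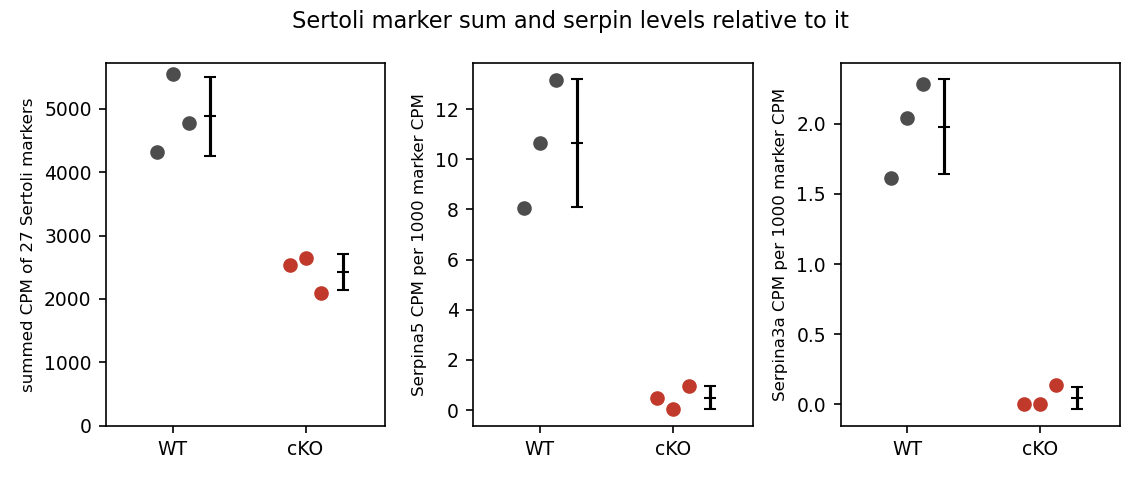
Summed CPM of 27 Sertoli markers (left) and the CPM of Serpina5 and Serpina3a per 1000 CPM of that sum (middle and right) in each library, with mean and SD of 3 libraries. The marker sum is 2100 to 2642 in cKO and 4320 to 5549 in WT, and the relative level of Serpina5 is at most 0.958 in cKO and at least 8.07 in WT.

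Since clade A serpins are typical liver products, 12 hepatocyte markers were read as well. They summed to 19.6, 34.7 and 49.7 CPM in cKO and 41.1, 43.7 and 43.2 CPM in WT, with 7 tested and 0 called by edgeR (unadjusted p under 0.05 in 3 lower and 0 higher; DESeq2 called 1 lower and limma-voom 0). Alb, albumin, had 0.132, 10.8 and 15.2 CPM in cKO and 2.18, 7.58 and 2.09 CPM in WT, which overlap. Ahsg, a plasma glycoprotein, had 4.68, 4.99 and 8.57 CPM in cKO and 12.4, 10.2 and 15.3 CPM in WT, without overlap (log2 fold change -1.06, SE 0.277, edgeR adjusted p = 0.0712). Fgg (-0.99, edgeR adjusted p = 0.228), Hnf4a (-0.82, edgeR adjusted p = 0.277) and Afp (-0.40, edgeR adjusted p = 0.376) also had negative values, and the median of the 7 was -0.40. For Ahsg, Fgg, Hnf4a and Afp all cKO libraries lay below all WT libraries, as in 10.9% of all tested genes. Ttr was at 0 in 1 library and Fgb in 2. Summed markers of fetal Leydig cells stood at 5954 to 8051 CPM in cKO and 4510 to 5383 CPM in WT, without overlap. Those of interstitial and peritubular cells (12950 to 21120 and 9221 to 14470), germ cells (821 to 1498 and 1288 to 1763), endothelium (587 to 677 and 533 to 597), macrophages (69.9 to 77.6 and 60.4 to 81.2) and mesonephros, ducts and adrenal (80.9 to 117 and 96.6 to 112) overlapped. Called members of these lists were 1 higher (Fdx1) of 8 tested for Leydig cells, 1 higher (Des) and 1 lower (Ptch1) of 14 for interstitial and peritubular cells, 1 higher (Kdr) of 8 for endothelium, 1 lower (Pnmt) of 12 for mesonephros, ducts and adrenal, and 0 with edgeR for germ cells (10 tested) and macrophages (11 tested). For Leydig cells DESeq2 called 3 higher, limma-voom 2 higher and both 0 lower, with an unadjusted p under 0.05 in 5 higher and 0 lower. For interstitial and peritubular cells the calls were 4 higher by DESeq2 and 1 higher by limma-voom, with 1 lower by each, and an unadjusted p under 0.05 stood in 8 higher and 1 lower. Endothelium had 1 higher and 0 lower by all of these counts. Mesonephros, ducts and adrenal had 0 higher and 1 lower by DESeq2 and by limma-voom, and 1 higher and 2 lower before adjustment. For germ cells an unadjusted p under 0.05 was found in 2 lower and 0 higher, and DESeq2 called 1 lower and limma-voom 0. For macrophages it was found in 1 higher and 0 lower, with 0 called by DESeq2 and limma-voom. Over all 18383 tested genes, edgeR called 1.84% lower and 1.50% higher, and unadjusted p was under 0.05 in 1476 lower and 1424 higher. The part of these cells in the serpin values was not tested.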

How the data were processed

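Polyadenylated RNA of 6 testis samples was sequenced. The submitters' processing notes list HISAT2 2.0.5 and GRCm38, while the deposited gene identifiers and coordinates are those of the C57BL/6NJ strain annotation. Counting tool and strand setting: not given in the sources used here. Whole-number gene counts were deposited, not normalised. The authors' deposited FPKM values were used for levels between genes and, on a log2 scale, in 2 alternative fits.

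Members were rows with a symbol starting with Serpin and biotype protein_coding. Genes passing filterByExpr were fitted with edgeR 4.0.16 (TMM, glmQLFit and glmQLFTest, no covariate) in R 4.3.3, and p-values were adjusted by Benjamini-Hochberg across every tested gene. An SE was taken as the log2 fold change over the root of the F statistic, with 95% intervals from its t distribution. Library totals were TMM-scaled for CPM. limma 3.58.1 and DESeq2 1.42.0 served as alternatives. The fit was checked on simulated data. Libraries of 1 group differed by more than counting noise (13.6 to 40.9 as chi-square over its degrees of freedom), and each was counted once.

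The members, lists and tests were chosen with earlier results of these data known. Values by library were given for members called, with a mean of at least 20 CPM in a group, or tested in the chromosome 12 cluster. From the lists of targets, receptors, other inhibitors and collagens, up to 4 genes with the smallest p and the 2 most abundant were named. Plat, Plau, Proc, the marker genes of cell types, Serpine3, and the untested members given with counts, are outside that rule, picked once their values were known. Promoter windows came from RefSeq (GRCm38.p6), matched by symbol for 40 of 49 members, and were aligned with Biopython 1.88. Of the tested members, 1 is counted in the totals but not reported here by itself. GENCODE M21 transcripts were used for shared 100-base windows only.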

Additional observations from a re-analysis of the deposited data

How the results depend on the processing

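Serpina5 and Serpina3a were the same 2 serpins called lower, and 0 were called higher, in all 17 alternatives. These were 11 other scalings, filters, tools or designs and 6 fits that each left out 1 library. A lone pair of libraries in a group keeps the spread estimated across both groups. Of 13 serpins followed by name, 0 lost and 0 gained a call. Serpina9 had a result in only 15 of the 17 alternatives and Serpina12 in 16. Over these alternatives Serpina5 ranged from -6.29 to -4.04. Serpina3a ranged from -7.08 to -2.53 without the fit that left out cKO library 3, where it is a lower bound only. The 27 serpins with 55 counts or fewer in all were not tested, so depth limits what can be said of them.

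Over all genes, 339 were lower and 276 higher. The DESeq2 Wald test gave 574 and 527, no low-count filter 651 and 613, and limma-trend on log2(FPKM + 0.1) 223 and 149. On log2(FPKM + 1) 156 were higher. Leaving out 1 library gave 167 to 399 lower (167 without WT library 3, 170 without cKO library 3, 190 without WT library 2, 218 without WT library 1) and 105 to 342 higher (105 without WT library 1 or 3, 134 without cKO library 3, 180 without WT library 2). The median of the chromosome 12 members, -1.44, was -0.42 on log2(FPKM + 1) and -2.02 to -1.26 with 1 library left out. The log2 ratio of the cluster's sum, -3.13, was -1.58 without Serpina5. The causes were not tested.

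Sign changes occurred only in serpins that were not called. Serpina3g was 0.086 with limma-voom and 0.0034 on log2(FPKM + 0.1). Serpinb1a was 0.0013 and 0.00099 on log2(FPKM + 0.1) and log2(FPKM + 1). Serping1 was -0.0018 with library totals, -0.039 with limma-voom, and -0.036 and -0.033 on the FPKM scales. With 1 library left out, Serpina3g ranged from -0.66 to 0.11, Serping1 from -0.22 to 0.27, Serpinb1a from -0.072 to 0.067, Serpinb6a from -0.052 to 0.16, Serpinf1 from -0.019 to 0.16 and Serpini1 from -0.14 to 0.17.

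Same-numbered libraries deviated together with correlations of 0.0172, 0.184 and 0.0325. cKO libraries 2 and 3 correlated best with the WT library of the same number, and cKO library 1 with WT library 3 (0.157). The correlations were small and the labels name no pairs, so the numbers were not taken as pairs. With the replicate block 2 serpins were lower and 0 higher, 372 and 324 of all genes, and Serping1 was -0.037.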
